A study of Mus musculus with 4 samples.

Results

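Thrombospondin 1 and the core genes of the TGF-β pathway were followed in transformed mouse haematopoietic stem and progenitor cells. The set holds 10 genes, picked by symbol from the 55426 genes of the deposited tables: the activator Thbs1, the ligands Tgfb1, Tgfb2 and Tgfb3, the storage protein Ltbp1, the receptors Tgfbr1, Tgfbr2 and Tgfbr3 and the SMAD genes Smad3 and Smad7. It was put together because Thbs1 and Tgfb2 were lower in one of the groups, so the difference between the groups had already been used, and it is given for these genes as a description, with no p-value.

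TGF-β is secreted as a latent dimer in which each ligand stays wrapped in its own propeptide. LTBP proteins tether that complex to the matrix, and integrins, proteases or thrombospondin 1 can free the ligand from it. The free ligand binds the type II receptor, which activates the type I receptor. That kinase phosphorylates SMAD2 and SMAD3, which enter the nucleus with SMAD4, while SMAD7 inhibits the receptors. In bone marrow the pathway is best known for restraining the division of blood stem and progenitor cells.

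Both groups were lines grown from lineage-negative mouse bone marrow and kept in IMEM with fetal bovine serum and antibiotics. The MLL-ENL group carried the MLL-ENL fusion, which joins the histone methyltransferase MLL (Kmt2a) to ENL (Mllt1), a chromatin reader whose YEATS domain binds acylated histone tails. The MLL-ENL ∆YEATS group carried a fusion whose label gives ENL residues 372 to 559, read here as the part that it keeps. The titles number 2 libraries per genotype, which the design text calls technical replicates. Whether they come from separate cultures is not stated, and no other line of a genotype is named. Genotype and line thus cannot be told apart, and p-values measure only the spread between libraries of a group. Which ENL residues the MLL-ENL fusion itself holds is not stated in the labels. Polyadenylated RNA was counted at 27812855 to 28814798 expected counts per library. Levels of a gene are given in CPM, the count over the scaled library size, and levels between genes in FPKM, which also divides by gene length. Values are listed for library 1 and then library 2 of a group. Log2 fold changes are MLL-ENL ∆YEATS minus MLL-ENL. In bulk RNA, fewer cells of a type and less RNA per cell cannot be told apart.

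Both lines had the RNA of blood cells. The 8 haematopoietic markers, among them Ptprc (CD45) and the transcription factor Spi1, summed to between 2665.7 and 2902.6 CPM in each library. Of these 1 was called higher and 2 lower, where 7.04% and 9.84% of all tested genes were. Spi1 rose from 167.9 and 183.3 to 243.8 and 240.6 CPM (adjusted p = 0.0404), the sialoglycoprotein Spn (CD43) fell from 546.3 and 467.1 to 323.7 and 320.8 CPM (0.0213), and Cd48 had 94 and 139 counts against 1 and 2. The calls of Spi1 and Spn were lost without either MLL-ENL ∆YEATS library. That of Spi1 was also lost with edgeR without a filter on low counts (adjusted p = 0.0557) or with a replicate block (0.0532). With limma on log2 FPKM it was lost as well (adjusted p = 0.0866, 0.086 and 0.186). Of 8 progenitor markers 5 passed the filter on low counts, of which 1 rose and 2 fell. The transcription factor Gata2 rose from 15 and 17 to 294 and 290 counts (adjusted p = 0.000387) and Meis1 fell from 95.5 and 94.3 to 58.3 and 53.7 CPM (0.00997), the latter not called without MLL-ENL ∆YEATS replicate 1 or 2 (0.122 and 0.239). The stem cell factor receptor Kit was lower (50.4 and 66.9 against 2.62 and 3.91 CPM, adjusted p = 0.000681), and the surface protein Cd34 had 0 and 0 counts against 3 and 3. Of 10 lymphoid and erythroid markers 7 were at 0 in every library, and the list summed to at most 1.34 CPM. Spread within a pair was larger for MLL-ENL: the SD of the log2 ratio of library 2 to library 1 over 13245 tested genes was 0.386 against 0.176. In the MLL-ENL pair that ratio rose with the length of the transcript (Spearman's correlation 0.487 across genes, which share libraries and are not replicates).

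Of the 10 genes, 8 passed the filter. Thbs1, Tgfb2 and Tgfbr3 were called lower in MLL-ENL ∆YEATS cells, 0 were called higher, and 5 were not called (adjusted p below 0.05 with edgeR's quasi-likelihood test, which also gave all other adjusted p below unless a tool is named). Over all 13245 tested genes 9.84% were called lower and 7.04% higher, and since the set was chosen on this contrast the count describes it and tests nothing. In 5 of the 8 both MLL-ENL ∆YEATS libraries lay below both MLL-ENL libraries, an order that 32.2% of all tested genes showed, and 0 showed the reverse order (32.1%). Tgfb3 and Ltbp1 had too few counts to be tested.

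**Figure D1:**
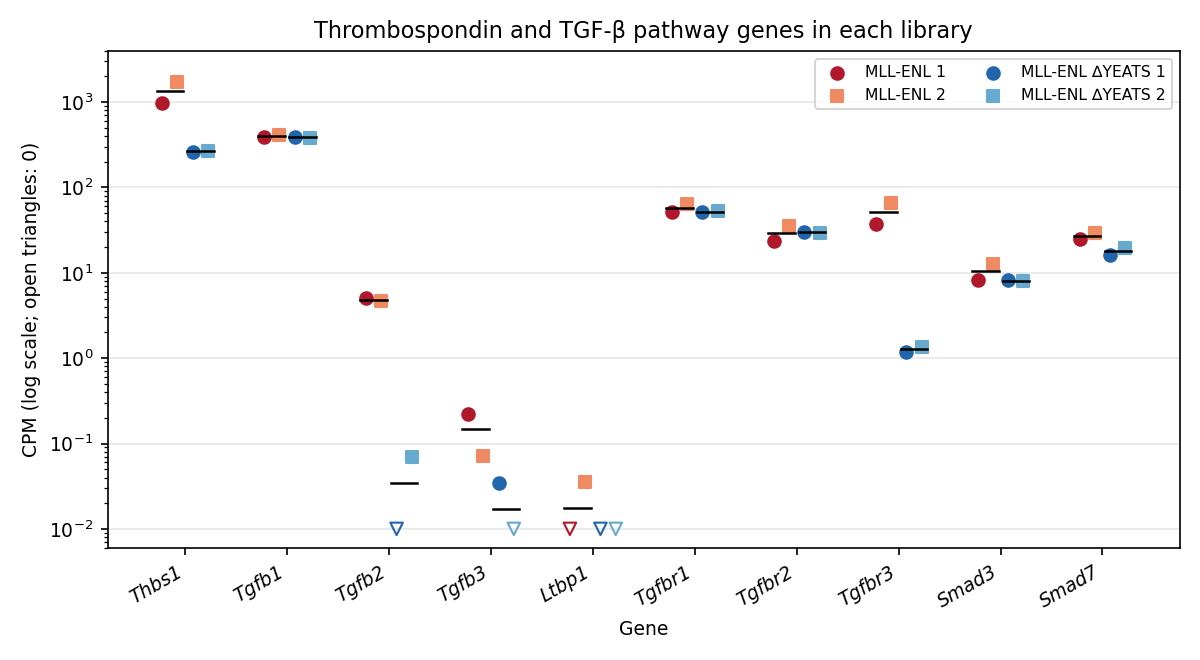
Level of each of the 10 genes in the 4 libraries, in CPM on a log scale, with a bar at the mean of each group where it is above 0 and open triangles for libraries at 0. Thbs1 (970.2 and 1715.1 against 263.1 and 266.4 CPM), Tgfb2 and Tgfbr3 lie far apart between the groups. The groups also do not overlap for Smad7, for Tgfb3 on few counts and, narrowly, for Tgfb1, which lies between 378.2 and 413.2 CPM in all 4.

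Thbs1 encodes thrombospondin 1, a large secreted glycoprotein that binds the matrix and cell surface receptors and can activate latent TGF-β. The gene (ENSMUSG00000040152) lies on the plus strand at chr2:118111876-118127133 (GRCm38). Thbs1 was at 970.2 and 1715.1 CPM in MLL-ENL cells and at 263.1 and 266.4 CPM in MLL-ENL ∆YEATS cells. The lower MLL-ENL library was thus still far above both MLL-ENL ∆YEATS libraries, and the group means differed 5.07-fold (log2 fold change -2.34 ± 0.28 SE). By FPKM Thbs1 ranked 619 and 285 among all genes in MLL-ENL cells and 2417 and 2373 in MLL-ENL ∆YEATS cells. It was therefore one of the more abundant transcripts of the MLL-ENL line.

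The MLL-ENL libraries disagreed on how high Thbs1 was. Library 2 exceeded library 1 by 0.82 on the log2 scale, a larger ratio than in 97.9% of tested genes, whereas the MLL-ENL ∆YEATS libraries differed by 0.02. Leaving out MLL-ENL replicate 1 gave a log2 fold change of -2.7, and leaving out MLL-ENL replicate 2 gave -1.87. With the trend on transcript length removed it was -2.43. Tgfbr3 had the same excess of 0.82 in library 2, and Smad3 and Tgfbr2 followed at 0.60 and 0.57. Tgfb1 (0.06) and Tgfb2 (-0.12) had nearly even libraries, so the spread within the MLL-ENL pair did not touch all genes of the set alike.

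**Figure D2:**
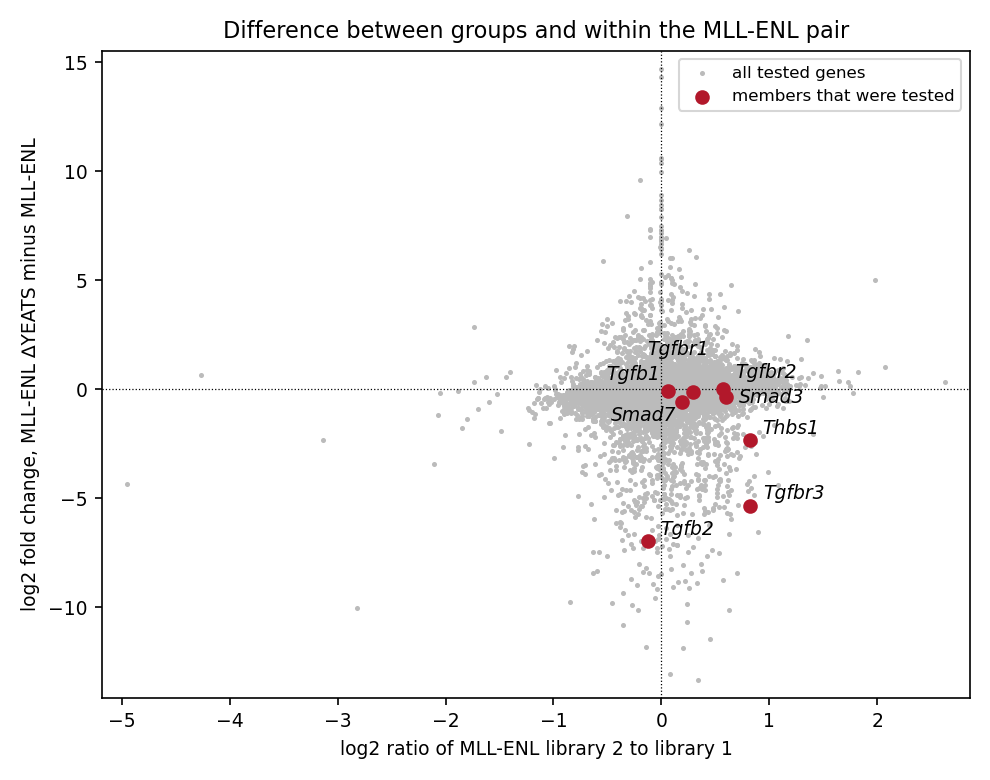
Log2 fold change between the groups (vertical) against the log2 ratio of the 2 MLL-ENL libraries (horizontal) for all 13245 tested genes in grey and the 8 tested genes of the set in red. Thbs1 and Tgfbr3 lie far below 0 and at 0.82 on the horizontal axis, Tgfb2 lies lowest of the 8, at -0.12, and the other 5 lie near a fold change of 0.

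Platelets, fibroblasts, endothelium and macrophages are known sources of thrombospondin 1. Megakaryocyte and platelet markers summed to 4.59 and 3.09 CPM in MLL-ENL cells and 2.76 and 3.21 CPM in MLL-ENL ∆YEATS cells, with Treml1 at 0 throughout and 4, 8, 1 and 0 counts of the platelet chemokine Pf4. Of these 10 markers 2 were tested, with log2 fold changes of -0.69 and -0.56, and 0 were called. Fibroblast markers summed to 10.8 and 7.29 against 8.28 and 8.31 CPM. Nearly all of that was the actin gene Acta2 (9.97 and 6.86 against 7.49 and 7.68 CPM), with Dcn, Lum and Cxcl12 at 0. The receptor Pdgfra, the other tested marker of that list, was called higher on 0 and 1 against 11 and 11 counts, a ratio of 20.8 with a 95% counting interval of 3.36 to 859, though not by DESeq2 (adjusted p = 0.0858). Endothelial markers summed to 13.7 and 9.64 against 11.2 and 11.1 CPM and were almost entirely Egfl7, with Cdh5, Kdr, Emcn and Robo4 at 0.

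Several monocyte and macrophage markers were higher in MLL-ENL ∆YEATS cells. Of 10, 7 were tested, of which 4 were called higher (7.04% of all tested genes were) and 3 were not called (log2 fold changes from -0.50 to 0.82), and the list summed to 109.9 and 140.6 against 210.8 and 197.9 CPM. Cd68, a lysosomal protein of phagocytes, rose from 10.5 and 9.39 to 20.6 and 22.4 CPM (adjusted p = 0.00515), and the receptor Csf1r from 3.92 and 5.55 to 9.54 and 8.90 CPM (0.0346). The complement genes C1qa, C1qb and C1qc were at 0. The call of Csf1r ended without MLL-ENL ∆YEATS replicate 1 (adjusted p = 0.102), and the count of 4 became 2 without that library, 3 without MLL-ENL ∆YEATS replicate 2 and 1 with limma on log2 FPKM. The part of any of these cell types in the levels of Thbs1 and the TGF-β genes was not tested.

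Among the ligands, Tgfb1 carried nearly all of the message. Tgfb1 (chr7:25687002-25705077, plus strand), the main TGF-β of blood cells, was at 202.63 and 225.55 FPKM in MLL-ENL cells and at 212.57 and 203.80 FPKM in MLL-ENL ∆YEATS cells. In CPM these were 395.2 and 413.2 against 392.8 and 378.2, and the log2 fold change was -0.07 ± 0.10 SE. The 2 groups just fail to overlap in CPM and do overlap in FPKM. Tgfb1 ranked between 416 and 502 by FPKM in all 4 libraries.

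Tgfb2 (ENSMUSG00000039239, chr1:186622792-186705989, minus strand) encodes the ligand best known from heart and skeletal development. It had 136 and 130 expected counts in MLL-ENL cells and 0 and 2 in MLL-ENL ∆YEATS cells. In CPM the values were 5.08 and 4.62 against 0 and 0.0698. The ratio of the groups was 141, with a 95% interval for counting error of 38.5 to 1170. Even in the MLL-ENL line Tgfb2 was a minor ligand: its FPKM was 0.00528 and 0.00576 of that of Tgfb1. The antisense gene Gm29491 overlaps the start of Tgfb2 and had 0 counts in every library, so no reads of the locus were assigned to it.

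The RefSeq promoter table (GRCm38.p6) matched 6 of the 10 genes. The 250 bases before the start of Tgfb2, the ligand that fell, and of Tgfb1, the ligand whose level hardly differed, are shown so that the 2 promoters can be compared. They span chr1:186705990-186706239 (minus strand) and chr7:25686752-25687001 (plus strand) and are written 5′ to 3′ along the gene. Capitals mark each match to 8 searched motifs.
Tgfb2: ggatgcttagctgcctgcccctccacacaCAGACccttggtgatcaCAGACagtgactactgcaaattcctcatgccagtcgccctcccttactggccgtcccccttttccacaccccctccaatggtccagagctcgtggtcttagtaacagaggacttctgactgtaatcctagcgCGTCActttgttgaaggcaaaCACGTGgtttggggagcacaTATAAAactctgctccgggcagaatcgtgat
Tgfb1: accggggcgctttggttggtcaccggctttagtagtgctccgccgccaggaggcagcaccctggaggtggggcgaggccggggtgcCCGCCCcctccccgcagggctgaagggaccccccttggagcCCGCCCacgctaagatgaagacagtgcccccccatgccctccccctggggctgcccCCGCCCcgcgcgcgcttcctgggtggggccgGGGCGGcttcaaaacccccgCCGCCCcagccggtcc

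The motifs were searched on both strands, apart from the TATA box, which was read on the gene's strand. Tgfb2 has a TATA box (TATAAA) at bases -31 to -26, counted back from the start, an E-box (CACGTG) at -51 to -46 and the core of a cyclic AMP response element (TGACG, here as CGTCA) at -72 to -68. It also has the SMAD box CAGAC at -221 to -217 and at -204 to -200. Tgfb1 has none of these and has 5 GC boxes (GGGCGG, 4 of them as CCGCCC). Among 32851 promoter windows of the same length the TATA box was found in 7.59%, the E-box in 6.02%, the core TGACG in 17.8%, CAGAC in 42.2% and the GC box in 32.7%. The AP-1 site TGAGTCA (4.46% of windows), the full element TGACGTCA (1.55%) and the paired SMAD box GTCTAGAC (0.167%) were in neither window. The GC content was 53.6% for Tgfb2 and 75.2% for Tgfb1, against a median of 52.4% over all windows.

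Tgfb3 and Ltbp1 were close to silent in both lines. Tgfb3, the third ligand, had 6 and 2 counts in MLL-ENL cells and 1 and 0 in MLL-ENL ∆YEATS cells. Ltbp1, which stores latent TGF-β in the matrix, had 1 count in MLL-ENL library 2 and 0 in the other libraries. A floor of 3 counts per library is 0.102 to 0.112 CPM, and floors and intervals here cover counting error only.

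The receptors did not move together. Tgfbr1, the type I kinase (chr4:47353222-47414931), was at 51.4 and 63.2 CPM in MLL-ENL cells and at 51.0 and 52.7 CPM in MLL-ENL ∆YEATS cells. Tgfbr2, the type II kinase that binds the ligand (chr9:116084293-116175360), was at 23.5 and 35.1 against 30.5 and 29.2 CPM. Both groups overlapped for each kinase, with log2 fold changes of -0.14 ± 0.14 SE for Tgfbr1 and 0.02 ± 0.21 SE for Tgfbr2. The direction of each rested on the MLL-ENL pair. Tgfbr1 had -0.29 with MLL-ENL replicate 1 left out and 0.01 with MLL-ENL replicate 2 left out. Tgfbr2 had -0.24 and 0.34 in the same fits, in opposite directions.

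Tgfbr3 encodes betaglycan, the co-receptor that presents ligand to the type II receptor and on which TGF-β2 depends most. The gene (ENSMUSG00000029287) lies on the minus strand at chr5:107106570-107289629. Tgfbr3 was at 37.2 and 66.3 CPM in MLL-ENL cells and at 1.19 and 1.36 CPM in MLL-ENL ∆YEATS cells, from 997, 1864, 35 and 39 counts. Every MLL-ENL value was far above every MLL-ENL ∆YEATS value. The means differed 40.5-fold (log2 fold change -5.34 ± 0.37 SE), and the log2 fold change was -5.70 with MLL-ENL replicate 1 left out and -4.86 with MLL-ENL replicate 2 left out. Per length, betaglycan message was 1.26 and 1.48 times that of Tgfbr2 in MLL-ENL cells and 0.0320 and 0.0362 times in MLL-ENL ∆YEATS cells. Gm43422 and Gm43423, gene models inside Tgfbr3 on the same strand, had 7 and 10 and 20 and 5 counts in MLL-ENL cells and 0 in MLL-ENL ∆YEATS cells.

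The SMAD genes showed smaller differences. Smad3, which carries the signal to the nucleus, was at 8.18 and 12.7 CPM in MLL-ENL cells and at 8.24 and 8.03 CPM in MLL-ENL ∆YEATS cells, so the groups overlapped (log2 fold change -0.36 ± 0.23 SE). Leaving out MLL-ENL replicate 1 gave a log2 fold change of -0.64, and leaving out MLL-ENL replicate 2 gave -0.01. Smad7, the inhibitory SMAD and itself a target of the pathway, was at 25.2 and 28.9 against 16.1 and 19.5 CPM, with both MLL-ENL ∆YEATS libraries below both MLL-ENL libraries. Its log2 fold change was -0.60 ± 0.15 SE, and it was not called. Whether Smad7 was called depended on the fit, with DESeq2 among those that called it. Since the set was chosen on this contrast, that describes the gene and tests nothing. Its log2 fold change lay between -0.75 and -0.30 over 17 alternatives.

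Smad3 also differed between libraries in the transcripts its reads were assigned to. The ratio of counts to FPKM gives the transcript length that the estimate used, which shifts when reads are moved between shorter and longer transcripts. For Smad3 it was 4807 and 3386 bases in MLL-ENL cells and 3925 and 4773 bases in MLL-ENL ∆YEATS cells. The step within the MLL-ENL pair was -0.51 on the log2 scale, where 11174 genes had a 5th percentile of -0.27. The pair spread of Smad3 was accordingly wider in FPKM (1.62 and 3.78) than in CPM. Thbs1 stood at 5536 to 5553 bases in all 4 libraries, and Smad7 at 3987 and 3940 against 3500 and 3391 bases.

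Per length the order of the set differed between the lines. In the MLL-ENL libraries Thbs1 (239.8 ± 103.8 FPKM, SD, n = 2) and Tgfb1 (214.1 ± 16.2) stood far above the rest and did not differ beyond their spread. Tgfbr1 (11.8 ± 2.80), Tgfbr3 (9.15 ± 4.24), Smad7 (6.71 ± 0.983) and Tgfbr2 (6.54 ± 2.35) followed, with each neighbour within the spread of the next. Smad3 (2.7 ± 1.53) and Tgfb2 (1.19 ± 0.163) came last among the tested genes, with a gap inside the SD of Smad3 although their libraries did not overlap. In the MLL-ENL ∆YEATS libraries Tgfb1 (208.2 ± 6.20 FPKM) stood first and Thbs1 (48.6 ± 0.346) second. Tgfbr1 (10.9 ± 0.269), Tgfbr2 (7.04 ± 0.191), Smad7 (5.28 ± 0.827), Smad3 (1.93 ± 0.304) and Tgfbr3 (0.240 ± 0.0141) followed, each apart from the next by more than their SDs. Thbs1 was 0.821 and 1.39 times Tgfb1 in MLL-ENL cells and 0.228 and 0.240 times in MLL-ENL ∆YEATS cells.

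Genes around the set were then examined by position, in a window of 500 kb on each side that was chosen after the values of the set were known. Of 67 tested neighbours of the 10 genes 1 was called higher and 6 lower (10.4%, against 16.9% of all tested genes). The 5 tested neighbours of Thbs1 had log2 fold changes from -1.24 to 0.28. Its nearest, the divergent transcript Gm13986, had 13 and 21 counts against 8 and 7 (adjusted p = 0.0988). Tgfb2 had 2 tested neighbours, and the nearer, Rrp15, which acts in ribosome assembly, was at 67.7 and 53.3 against 66.4 and 64.5 CPM. The 10 tested neighbours of Tgfbr3 included the non-coding Gm26692, called lower on 10 and 15 against 1 and 0 counts, and Evi5, called higher (20.9 and 27.3 against 43.6 and 45.7 CPM). This count differed most without an MLL-ENL library. More neighbours were then called in both directions, and so were more of all tested genes.

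The rest of the pathway was described with 9 lists that hold 172 other genes, of which 113 passed the filter. The lists were chosen with earlier results of these data known, so their shares describe them and test nothing. Of the 113 tested genes 20 rose and 13 fell, 29.2% against 16.9% of all tested genes, with a median log2 fold change of 0.13 against -0.01. The count was lower without either MLL-ENL ∆YEATS library and higher without either MLL-ENL library. The number of all genes called moved the same way. With limma on log2(FPKM + 1) the count of pathway genes was 20 with the filter and 9 without.

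**Figure D3:**
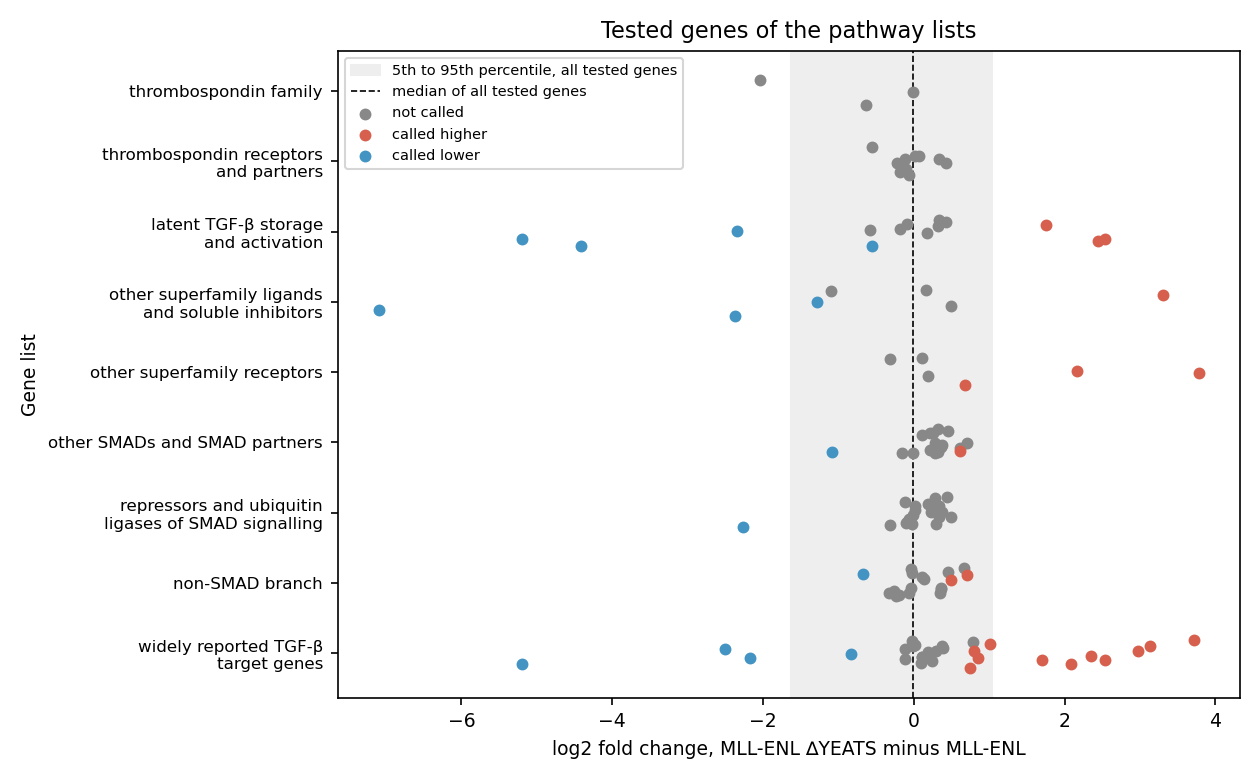
Log2 fold change of each tested gene of the 9 pathway lists, coloured by call, with the median of all 13245 tested genes (dashed) and their 5th to 95th percentile (grey band); a gene in several lists appears in each, and the vertical scatter within a list has no meaning. Thrombospondin receptors lie between -0.55 and 0.43, whereas storage and activation genes run from -5.20 (Tgm2) to 2.53 (Mmp9). The lowest ligand point is Nog at -7.10, named after its values were seen. Nog has 0 counts in MLL-ENL ∆YEATS cells, so its place depends on the prior count and is no bound.

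Other thrombospondins were scarce, and the log2 fold changes of the thrombospondin receptors lay between -0.55 and 0.43. Thbs4 was at 0.822 and 0.782 against 0.647 and 0.384 CPM, and Comp, a cartilage thrombospondin, at 1.49 and 0.676 against 0.272 and 0.244 CPM (adjusted p = 0.285 and 0.0544). Of 3 tested family members 0 were called by edgeR, 1 had an unadjusted p under 0.05, DESeq2 called 1 and limma-voom 0. Of 10 tested receptors and partners 0 were called by edgeR, DESeq2 or limma-voom, and 1 had an unadjusted p under 0.05. The integrin subunit Itgb1 was at 429.9 and 416.5 against 374.0 and 373.3 CPM (adjusted p = 0.275) and Itgb3 at 5.38 and 5.30 against 7.73 and 6.67 CPM (0.135). Cd47, the thrombospondin receptor that also marks cells as self, chosen after its values were seen, was at 540.3 and 597.5 against 534.3 and 557.8 CPM. Without either MLL-ENL library some of the receptors and partners were called in both directions, and more of all tested genes were called too.

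Of 14 tested genes of latent TGF-β storage and activation 3 rose and 4 fell (50%, against 16.9% of all tested genes), with a median of 0.04. Tgm2, the transglutaminase that cross-links latent complexes into the matrix, fell from 109.4 and 117.2 to 2.86 and 3.32 CPM (log2 fold change -5.20 ± 0.15 SE, adjusted p = 0.000188). Fbn1, the microfibril protein to which LTBPs attach, fell from 1.98 and 2.10 to 0.647 and 0.140 CPM (0.0415). The proteases Mmp9 and Plau, which can release ligand, rose from 0.747 and 0.996 to 4.87 and 5.27 CPM (0.00234) and from 1.94 and 1.88 to 6.71 and 6.18 CPM (0.00327). Nrros, which anchors latent TGF-β1 on myeloid cells and is named after its values were seen, was at 193.4 and 211.8 against 254.9 and 252.2 CPM (adjusted p = 0.101). With either MLL-ENL library left out more of the list was called in both directions, as was more of all tested genes. The call of Fbn1 was not made with limma on log2 FPKM (adjusted p = 0.0654, 0.11 and 0.111).

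Most ligands of the other branches of the superfamily were too low to test, and 3 of the 6 tested receptors were higher. Over all tested genes 7.04% were called higher and 9.84% lower. Of 29 other ligands and soluble inhibitors 7 were tested, of which 1 rose and 3 fell, and 16 were at 0 in all libraries. Inhba, which encodes the activin A subunit, rose from 1.01 and 1.67 to 13.7 and 12.9 CPM (log2 fold change 3.30 ± 0.25 SE, adjusted p = 0.00129). Gdf11 fell from 1.53 and 2.06 to 0.272 and 0.419 CPM (0.0108) and the stress-induced Gdf15 from 7.24 and 5.37 to 2.18 and 3.0 CPM (0.0265), the latter not called without MLL-ENL ∆YEATS replicate 1 (0.0734). None of the 6 was called lower by edgeR, DESeq2 or limma-voom (4 had an unadjusted p under 0.05). Bambi, a decoy receptor named after its values were seen, was at 18.6 and 20.1 against 15.4 and 15.8 CPM (adjusted p = 0.137) and was called lower with the length trend removed and without either MLL-ENL library. The BMP receptor Bmpr1a rose from 2.73 and 4.34 to 46.8 and 50.7 CPM (adjusted p = 0.000681, log2 fold change 3.78 ± 0.23 SE) and the type II receptor Bmpr2 from 4.82 and 5.69 to 23.5 and 23.9 CPM (0.000811). The third receptor that rose, named after its values were seen, was the activin receptor Acvr2a (8.36 and 10.7 against 15.6 and 14.9 CPM, adjusted p = 0.0437). Fewer receptors were called higher without either MLL-ENL ∆YEATS library, and more without MLL-ENL replicate 2. The number of all genes called higher moved the same way.

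Of 17 tested SMADs and SMAD partners 1 rose and 1 fell (11.8%, against 16.9% of all tested genes). Runx1, a SMAD partner and regulator of blood cell formation, fell from 104.7 and 118.2 to 54.3 and 51.2 CPM (adjusted p = 0.00429). Runx3 rose from 54.9 and 59.9 to 86.5 and 89.0 CPM (0.0202), a call that ended without MLL-ENL ∆YEATS replicate 1 or 2 (0.293 and 0.353). Smad2 and Smad4, which work with Smad3 and were chosen after their values were seen, were at 45.6 and 52.8 against 63.2 and 63.2 CPM (0.107) and at 35.5 and 44.6 against 39.5 and 40.2 CPM (0.979). The list of repressors and ubiquitin ligases also holds deubiquitinases, and of its 19 tested genes 0 rose and 1 fell (5.26%). The gene that fell was the deubiquitinase Usp11, from 40.5 and 34.4 to 8.41 and 7.26 CPM (0.000952). More genes of both lists were called in both directions without either MLL-ENL library, as were more of all tested genes.

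The non-SMAD branch had 2 higher and 1 lower of 18 tested genes (16.7%, against 16.9% of all tested genes). Traf4, an adaptor of the receptors, rose from 8.4 and 7.75 to 13.2 and 13 CPM (adjusted p = 0.0222), the adaptor Grb2 from 148.8 and 155.2 to 217.1 and 213.4 CPM (0.0279), and the kinase Map2k6 fell from 15.5 and 13.4 to 9.13 and 9.04 CPM (0.0291). Each of these calls ended without MLL-ENL ∆YEATS replicate 1 (adjusted p = 0.252, 0.537 and 0.252) or 2 (0.207, 0.495 and 0.261), when 0 of the list remained called. More of this list was called in both directions without either MLL-ENL library, and the same held for all tested genes.

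Genes widely reported as TGF-β targets went both ways. Of 29 tested 11 rose and 4 fell (51.7%, against 16.9% of all tested genes), with a median of 0.29 against -0.01. Cdkn1c, which encodes the cell cycle inhibitor p57, rose from 1.79 and 1.07 to 10.5 and 12 CPM (log2 fold change 2.98 ± 0.27 SE, adjusted p = 0.00209). Mmp9 also counts here among the genes that rose and Tgm2 among those that fell. Ldlrad4, a feedback inhibitor of SMAD activation, fell from 5.45 and 6.69 to 1.29 and 1.40 CPM (adjusted p = 0.0028). Of further targets chosen after their values were seen, the inhibitor Cdkn1a (p21) rose from 41.9 and 44.8 to 77.7 and 78.5 CPM (0.00672) and Tgfbi, a matrix protein, fell from 7.17 and 6.58 to 4.09 and 3.63 CPM (0.0287). The feedback repressors Skil and Ski, chosen in the same way, had adjusted p of 0.236 and 0.897. Fewer targets were called each way without either MLL-ENL ∆YEATS library, and more without either MLL-ENL library. The number of all genes called moved the same way. The target genes were reported in many cell types, and several are also controlled by other signals.

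The genes whose pattern over the 4 libraries was most like that of Thbs1 and of Tgfb2 were taken by distance between centred log2 CPM profiles, among 10462 candidates. Nearest to Thbs1 were Asap2 (distance 0.16), Rnd3 (0.19), Adgrl2 (0.19), Htr2a (0.21) and Map3k15 (0.22). Because they were chosen by profile, they share with Thbs1 a higher MLL-ENL library 2. Asap2, which regulates ARF GTPases, was at 5.94 and 10.9 against 1.5 and 1.29 CPM, and Rnd3 at 2.65 and 4.27 against 0.238 and 0.244 CPM. Nearest to Tgfb2 were Bpifc (0.09), Trim68 (0.11), Fads2 (0.12), F2rl3 (0.13) and Stap2 (0.16), which by the same choice have nearly even MLL-ENL libraries. Fads2, a fatty acid desaturase, was at 218.9 and 186.3 against 17.8 and 19.4 CPM, and the thrombin receptor F2rl3 at 4.63 and 4.16 against 0 and 0.0698 CPM. The prior of 0.5 compresses values near 0 CPM, so near profiles need not share a fold change. Log2 fold changes were -3.44 for Fads2, -3.35 for Stap2 and -6.82 for F2rl3 against -6.96 for Tgfb2. Adgrl2 had -4.83 against -2.34 for Thbs1.

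**Figure D4:**
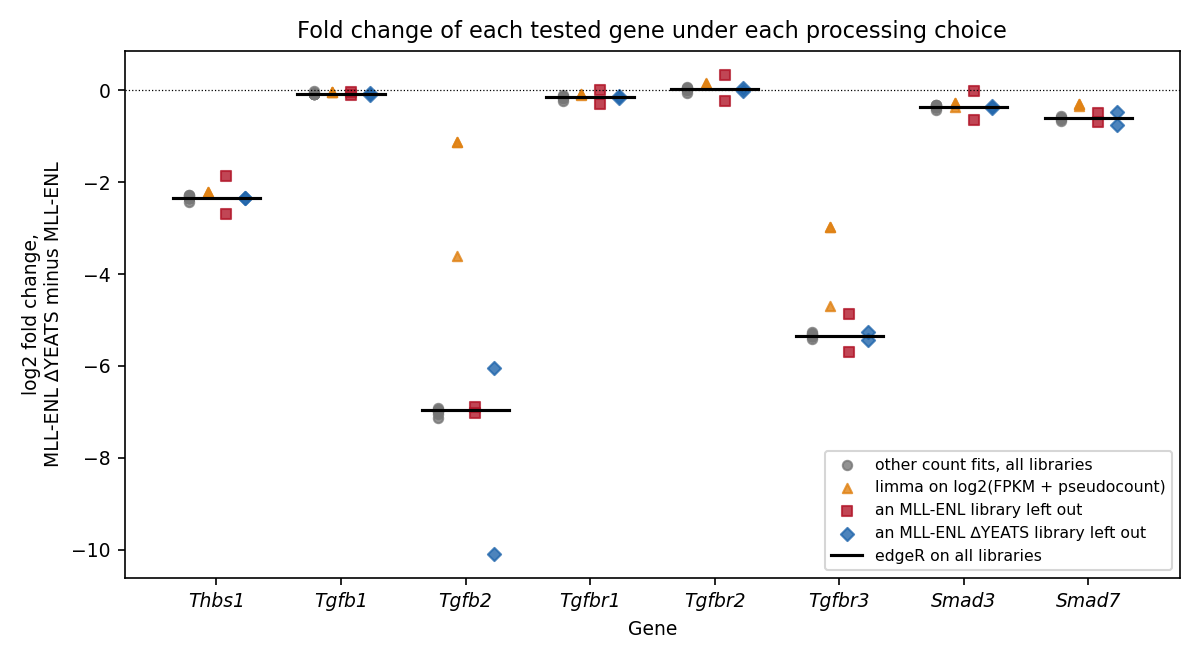
Log2 fold change of the 8 tested genes with edgeR on all libraries (black line) and under each alternative fit (points, by kind). Thbs1 stays between -2.7 and -1.87 and Tgfbr3 between -5.70 and -2.97, Tgfb2 spreads from -10.09 to -1.12 where its value near 0 counts depends on the prior count or pseudocount, and Tgfbr2 lies on both sides of 0.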

How the data were processed

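Polyadenylated RNA of 4 libraries in 2 groups of 2 was sequenced. Per the submitters' processing notes, the tools were RSEM 1.3.3, STAR 2.7.8a, FastQC 0.11.8 and cutadapt 2.3, and the build was mouse GRCm38. No settings, annotation release or strand setting are stated there, so reads of overlapping antisense genes cannot be told apart. The authors deposited expected counts per gene, whole numbers as deposited, and FPKM, which divide by library size and gene length. There are 55426 genes in each table, and 55240 of them matched GENCODE mouse release M21, which gave positions.

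Groups came from the sample titles. Counts were rounded, filtered with filterByExpr (13245 genes left), scaled by TMM and compared by the quasi-likelihood F-test of edgeR 4.0.16 under R 4.3.3 (legacy dispersion). P-values were adjusted by Benjamini-Hochberg, with a threshold of 0.05. The SE is the fold change divided by the square root of F. Log2 CPM profiles used a prior of 0.5. Alternatives were other scalings and filters, DESeq2 1.42.0, limma 3.58.1 (voom, and log2 FPKM with pseudocounts of 1 and 0.1), a robust fit, a replicate block, a length correction (lowess, span 0.3) and each library left out. The edgeR and limma-voom fits were tested on simulated counts with the same dispersion in both groups and no trend on length. That setting does not cover the uneven MLL-ENL pair. The members and lists were chosen with earlier results of these data known. Named are the 2 called genes that changed most each way at 1 CPM or more, or else the 2 with the smallest p. This was done for each pathway list and each marker list with called genes. Also named are the 5 nearest profiles to Thbs1 and to Tgfb2, and other pathway genes in the text are marked as chosen after their values were seen. Further cell type markers and neighbours were named outside this rule.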

Additional observations from a re-analysis of the deposited data

How the results depend on the processing

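The values of Thbs1, Tgfb2 and Tgfbr3 chose the set or come from the same contrast, so their ranges are a description. Over 17 alternatives Thbs1 kept its direction in all and its call in 16 (-2.21, no longer past the threshold, with limma on unfiltered log2(FPKM + 1)), and Tgfbr3 did the same (-2.97 there). Tgfb2 was called in all 16 alternatives that kept it and was removed by a minimum of 5 CPM in 2 libraries. The kinases had no settled direction: Tgfbr2 had -0.05 with the length trend removed and -0.24 to 0.34 over the fits without 1 library, and Tgfbr1 had -0.29 to 0.01 over the latter. All genes called numbered 1350 with a minimum of 5 CPM, 1466 and 674 with limma on filtered and unfiltered log2(FPKM + 1), and 1392 to 9099 without 1 library, against 2235. Other pathway genes called numbered 20, 20, 9 and 21 to 91 in the same settings, against 33. A fit without 1 library takes the spread of the group left with 1 library from the other pair, so without an MLL-ENL library it rests on the closer MLL-ENL ∆YEATS pair alone. For the other counts the cause was not tested. A replicate block, with numbers that only the titles share, called 3133 genes and 41 pathway genes and gave Smad7 -0.60. Same-numbered libraries did not deviate together (correlation -0.0758 across genes). With 2 libraries per group of a line, few counts limit Tgfb2, Tgfb3 and Ltbp1, and the MLL-ENL pair was uneven for Thbs1, Tgfbr3, Smad3 and Tgfbr2.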
